A study of Mus musculus with 7 samples.

Results

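Fatty acid synthesis and desaturation were followed through 10 genes in mouse Paneth cells: Acly, Acaca, Acacb, Fasn, Me1, Elovl6, Scd1, Scd2, Fads1 and Srebf1. The genes were chosen by name, and each was read from the brightest transcript cluster, the probe set that the array holds for a gene, under its symbol, out of 19938 genes with such a cluster. Paneth cells sit at the bottom of the crypts of the small intestine and secrete antimicrobial proteins. They were sorted by flow cytometry from mice aged 4 months on 2 diets held for 4 to 7 weeks: free feeding (ad libitum, n = 3), and calorie restriction to 60% of the calories eaten freely (n = 4). Total RNA was measured on 7 Affymetrix arrays, 1 per sample, to compare the diets in a cell type that forms part of the stem cell niche. The samples are labelled as biological replicates, with no strain, sex or number of mice per sample given, so p-values measure the spread between these samples only.

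New fatty acids are built in the cytosol from acetyl-CoA. Acly makes that acetyl-CoA from citrate, Acaca and Acacb carboxylate it to malonyl-CoA, and Fasn condenses malonyl-CoA into palmitate with NADPH that Me1 helps to supply. Elovl6 lengthens palmitate, the Scd enzymes add the first double bond, and Fads1 acts on polyunsaturated fatty acids. Srebf1 encodes SREBP1, a transcription factor that insulin and liver X receptors raise and that turns on most of these genes in liver and fat.

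Levels are log2 expression values, given as mean ± SD, restricted arrays first (n = 4), then ad libitum arrays (n = 3). A difference is the restricted mean minus the ad libitum mean ± SE, in log2 units from limma, with p adjusted by Benjamini-Hochberg over all genes tested and a threshold of 0.05. Array medians lay between 7.24 and 7.44. Paneth markers were bright on every array, such as lysozyme Lyz1 between 14.26 and 14.34. Markers of enterocytes, the absorptive cells, separated the diets: the mean of 26 measured markers was 11.80 to 12.07 under restriction and 10.44 to 11.09 under ad libitum feeding, and 11 of the 26 were called higher. Goblet and tuft cell markers were also present, at list means of 12.63 to 13.08 and 8.18 to 9.20. Enteroendocrine and stem cell markers had list means of 10.47 to 11.42 and 10.96 to 11.65. Of 8 measured adipocyte markers, 5 were below the level of 6.79 used as a filter, with adiponectin (Adipoq) between 5.07 and 5.35. Of the other 3, the lipid droplet gene Cidec was called higher, at 8.97 ± 0.21 against 7.92 ± 0.28 (limma, adjusted p = 0.0400), while Plin1 (7.12 ± 0.06 against 7.35 ± 0.08) and Plin4 (7.05 ± 0.12 against 7.13 ± 0.03) had negative differences and were not called. The arrays at the extremes were ad libitum replicate 1, where 24.3% of all genes tested had their highest value and 21.8% their lowest, and restricted replicate 4, with 18.5% and 20.3%.

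All 10 genes passed the filter, and 0 of them were called by limma in either direction, where 0.664% of the 13409 genes tested were called (0.656% higher and 0.00746% lower). By unadjusted p below 0.05, 2 of the 10 passed, Scd1 and Scd2, against 9.3% of all genes. These desaturases differed in opposite directions: Scd1 was the only one of the 10 whose restricted arrays all lay above the ad libitum arrays, and Scd2 the only one whose restricted arrays all lay below. Such a separation was found in 10.2% of the genes tested, 7.14% with restriction above and 3.03% with it below. The other 8 overlapped between diets, and 6 of these had a negative difference, of which Acaca, Elovl6 and Fads1 turned positive after median centring. The median difference of the 10 was -0.06, beside 0.01 for all genes tested. In bulk RNA of sorted cells, fewer cells of a type and less RNA per cell cannot be told apart.

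**Figure D1:**
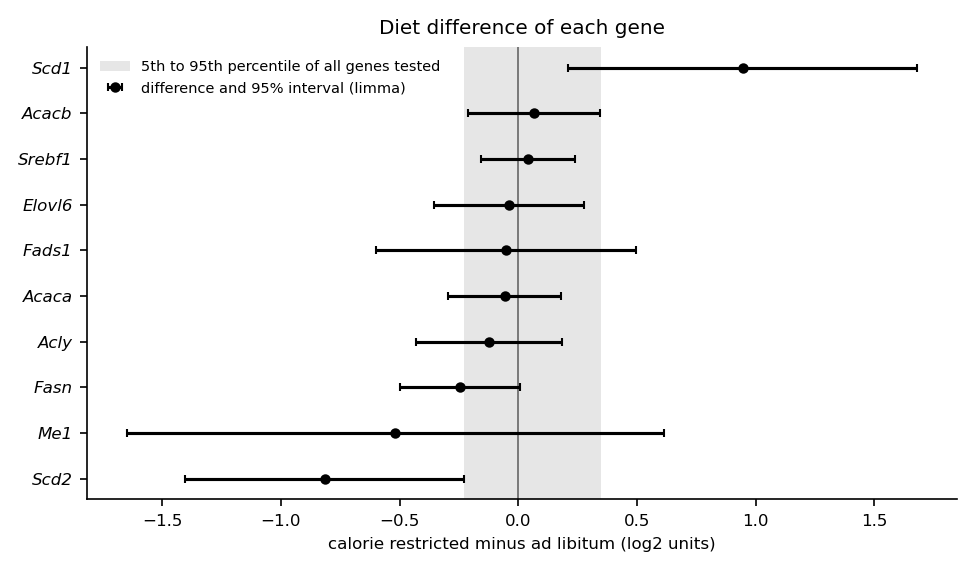
Diet difference of each of the 10 genes in log2 units (x axis, calorie restricted minus ad libitum), with points for the limma estimate, bars for the 95% interval, and grey for the 5th to 95th percentile of all genes tested (-0.23 to 0.35). The intervals of Scd1 (0.21 to 1.68) and Scd2 (-1.40 to -0.23) leave out 0, and the other 8 include it.

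Scd1 and Scd2 are stearoyl-CoA desaturases, neighbouring paralogs that make oleate and palmitoleate. Scd1 is the main form in liver, fat and skin, and Scd2 is known from brain and from development. Scd1 read 8.48, 7.22, 7.17 and 7.59 under restriction, in the order of the replicate numbers, against 7.09, 6.33 and 6.60 under ad libitum feeding. The gap between the diets was narrow, since restricted replicate 3 and ad libitum replicate 1 nearly met, and restricted replicate 1 was well above the rest. The difference was 0.95 ± 0.32 (7.62 ± 0.60 against 6.67 ± 0.38), with an adjusted p of 0.378 in limma and a range of 0.0475 to 0.934 over the alternatives. The ad libitum mean was below the filter level of 6.79, so Scd1 was kept in the test through its restricted arrays. Signal above background was not shown for the ad libitum arrays, and no fold change is given.

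Scd2 read 10.70, 9.83, 9.58 and 10.37 under restriction and 11.16, 10.82 and 10.83 under ad libitum feeding. Here too the groups came close, between restricted replicate 1 and the 2 lower ad libitum arrays, while restricted replicates 2 and 3 were lowest. The difference was -0.82 ± 0.26, which is 1.76-fold higher with ad libitum feeding (10.12 ± 0.51 against 10.94 ± 0.19). It had an adjusted p of 0.317 in limma, and 0.0445 to 0.916 over the alternatives. With each array weighted by how closely it followed the means of its diet over all genes, both genes passed (limma, Scd1 adjusted p = 0.0475, Scd2 adjusted p = 0.0445). That fit called 10.1% of all genes.

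Under restriction both genes varied widely, and the within-array log ratio of Scd2 to Scd1 varied less (SD 0.24) than either gene (SD 0.60 and 0.51). Under ad libitum feeding the SD of the ratio, 0.21, was no smaller than that of Scd2 alone, 0.19. It was 2.22, 2.60, 2.40 and 2.78 in the restricted arrays and 4.07, 4.49 and 4.23 in the ad libitum arrays. The ad libitum arrays were all higher, with a gap between the groups larger than the spread inside either. The ratio was 2.50 ± 0.24 against 4.26 ± 0.21, a difference of -1.76 ± 0.18. An exact two-sided permutation test over the 35 splits of the arrays gave p = 0.0286, the smallest that it allows. Adjusted over the 4 ratios compared, the permutation p was 0.114, so the ratio did not pass. The pair was chosen with earlier results known and joins the members that separate by diet in opposite directions. That separation alone fixes the p at its smallest value, so this p restates the separation and is not independent support for it. The ratio also uses the ad libitum values of Scd1. Their mean of 6.67 was below the filter level, and signal above background was not shown for them. Leaving out any single array kept the difference between -1.86 and -1.65. The level of a ratio between probe sets has no meaning of its own, and only its shift between diets is read here. Whether any probe binds both paralogs was not tested.

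The mean of the enterocyte markers separated the diets, as did Scd1 and this ratio. Within each diet that mean ranked the arrays in another order than Scd1 did. The part of the enterocyte markers in the result was not tested. With the enterocyte mean as a covariate, Scd1 had a difference of 0.51 ± 0.92 and Scd2 of -0.61 ± 0.74, with errors larger than either value. The related Scd3 and Scd4 were below the filter level on every array, between 5.92 and 6.22 and between 5.41 and 5.72.

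**Figure D2:**
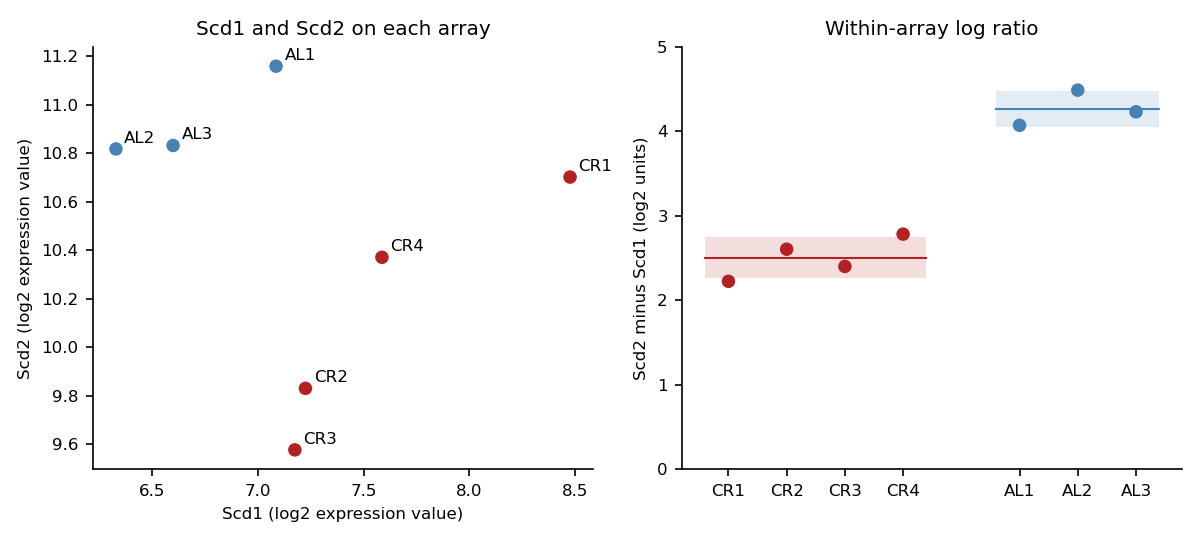
Left, the log2 expression value of Scd1 (x axis) against Scd2 (y axis) on each array. Right, the within-array difference Scd2 minus Scd1 in log2 units, with lines for the group mean and shading for ± 1 SD. CR is calorie restricted (red) and AL ad libitum (blue), with the replicate number. The 4 restricted arrays lie between 2.22 and 2.78 and the 3 ad libitum arrays between 4.07 and 4.49.

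The enzymes that make palmitate were not detectably different between the diets. Fasn, the synthase itself, read 10.98, 11.01, 10.99 and 11.08 under restriction and 11.50, 11.25 and 11.03 under ad libitum feeding. The restricted arrays were nearly level, and ad libitum replicate 3 fell among them. The difference was -0.24 ± 0.11 (11.02 ± 0.05 against 11.26 ± 0.23, limma adjusted p = 0.562), and it was -0.13 without ad libitum replicate 1. Its 95% interval ran from -0.50 to 0.01, so a loss of more than 1.41-fold lay outside it.

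Acly, ATP citrate lyase, lay between 10.68 and 11.08 under restriction and between 10.84 and 11.27 under ad libitum feeding (difference -0.12 ± 0.13, interval -0.43 to 0.19). Single arrays moved that difference, to -0.22 without ad libitum replicate 3, -0.045 without restricted replicate 4 and -0.0047 without ad libitum replicate 1. Acaca, the cytosolic acetyl-CoA carboxylase, was at 9.51 ± 0.12 against 9.57 ± 0.14, with an interval of -0.30 to 0.18. A second Acaca transcript cluster gave 8.55 ± 0.09 against 8.60 ± 0.04, a difference of -0.04 beside -0.06 for the first. Acacb, the carboxylase at the mitochondrial surface whose malonyl-CoA restrains fatty acid oxidation, was at 8.37 ± 0.17 against 8.30 ± 0.15 (interval -0.21 to 0.35). The within-array ratio of Acacb to Acaca differed by 0.13 ± 0.14 (exact permutation p = 0.371, adjusted 0.4). The signs of Acaca and Acacb were not stable: Acaca was at 0.03 after median centring, and Acacb at -0.04 with array weights.

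**Figure D3:**
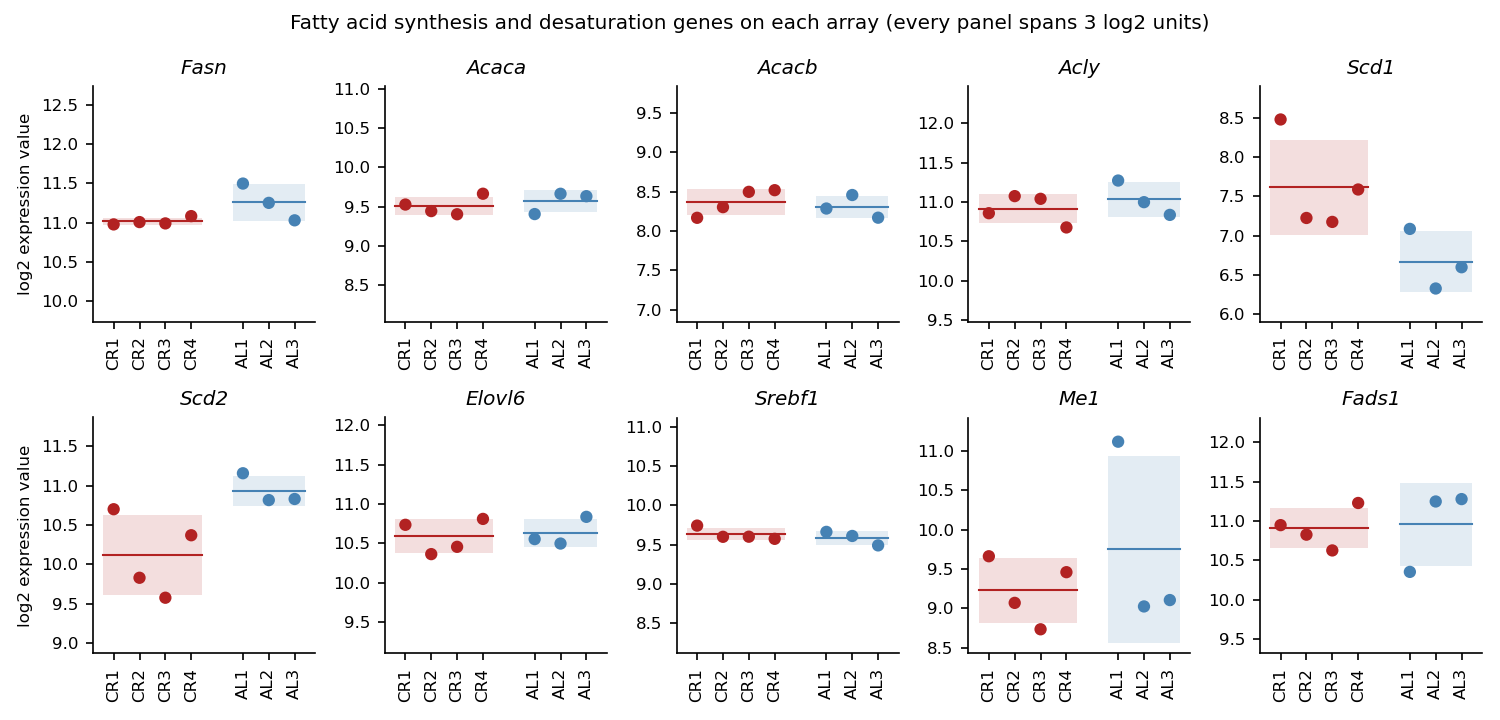
Log2 expression value (y axis, 3 log2 units in each panel) of the 10 genes on each array, calorie restricted (CR, red) and ad libitum (AL, blue), with lines for group means and shading for ± 1 SD. Scd1 and Scd2 are separated by diet in opposite directions, and Me1 at 11.12 in ad libitum replicate 1 stands above its other 6 arrays.

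Me1, the malic enzyme that regenerates NADPH in the cytosol, rested on 1 array. It read 9.66, 9.07, 8.73 and 9.46 under restriction and 11.12, 9.02 and 9.11 under ad libitum feeding. Ad libitum replicate 1 was more than 2 log2 units above the others of its diet, which fell among the restricted arrays, and a second Me1 transcript cluster showed the same at 11.10, 8.89 and 9.03. The difference was -0.52 ± 0.49 (limma, adjusted p = 0.836), and without ad libitum replicate 1 it turned to 0.17 ± 0.24 (limma, adjusted p = 0.812, in a range of 0.702 to 0.995 over the alternatives).

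Ad libitum replicate 1 held the highest value of 4 of the 10 genes: Me1, Fasn, Acly and Scd2. It held the lowest value of Fads1. The promoters of Fasn, Acly and Me1 are shown because these genes were highest together there. RefSeq windows of 300 bases (build GRCm38.p6, 250 before to 50 after the gene start) matched 7 of the 10 genes, in 10 windows. Capitals mark CCAAT, the NF-Y box, and GGGCGG, the GC box bound by Sp1, on either strand, where CCAATTGG is a pair of overlapping CCAAT matches on opposite strands. CCAAT was in 37.4% of all 32851 promoter windows and GGGCGG in 35.7%.
Fasn, chr11:120824498-120824797, minus strand: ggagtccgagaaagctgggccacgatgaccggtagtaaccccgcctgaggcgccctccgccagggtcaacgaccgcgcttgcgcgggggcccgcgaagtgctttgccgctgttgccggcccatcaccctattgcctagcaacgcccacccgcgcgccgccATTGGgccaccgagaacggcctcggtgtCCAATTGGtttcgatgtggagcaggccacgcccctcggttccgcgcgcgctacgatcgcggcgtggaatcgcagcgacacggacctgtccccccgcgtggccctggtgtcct
Acly, chr11:100527951-100528250, minus strand: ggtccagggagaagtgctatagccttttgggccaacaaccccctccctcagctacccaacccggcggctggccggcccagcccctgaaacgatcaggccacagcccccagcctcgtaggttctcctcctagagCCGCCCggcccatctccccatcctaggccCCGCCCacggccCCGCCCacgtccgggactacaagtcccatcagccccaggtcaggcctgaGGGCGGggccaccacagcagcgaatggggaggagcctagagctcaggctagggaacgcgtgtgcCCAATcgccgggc
Me1, chr9:86695865-86696164, minus strand: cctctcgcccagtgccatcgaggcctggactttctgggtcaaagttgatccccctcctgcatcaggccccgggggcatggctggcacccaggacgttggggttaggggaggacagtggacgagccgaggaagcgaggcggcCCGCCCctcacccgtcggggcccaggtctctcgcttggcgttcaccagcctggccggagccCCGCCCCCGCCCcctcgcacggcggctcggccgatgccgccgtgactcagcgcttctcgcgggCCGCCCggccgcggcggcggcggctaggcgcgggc
The Fasn window held 3 CCAAT matches and 0 GC boxes, the Acly window 1 and 4, and the printed Me1 window 0 and 4. A second Me1 window, starting at base 86687228, held 1 and 0. The windows do not share 1 layout. The sterol regulatory element letters TCACNCCAC, through which SREBP proteins act, were in 1.24% of all windows, and the E-box CACGTG in 7.15%. Neither was in any of the 10 windows, which says only that these letters are not there.

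Within each diet, Scd1, Scd2 and Me1 ranked the arrays alike. In all of them the order was replicate 1, 4, 2 and 3 under restriction and replicate 1, 3 and 2 under ad libitum feeding, an order found in 0.388% of the genes tested. None of the 11 marker list means had this whole order, and the goblet and immune means had its ad libitum part. The order is rare and was picked from these genes, so its absence from the lists carries little information. From the top to the bottom of the restricted arrays Scd1 spanned 1.30, Scd2 1.13 and Me1 0.93 log2 units. Fasn, in contrast, spanned 0.11 there.

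Elovl6, which extends palmitate to stearate, the preferred substrate of the Scd enzymes, overlapped between the diets. Its levels were 10.59 ± 0.22 against 10.63 ± 0.18 (interval -0.35 to 0.28). The ratio of Elovl6 to Fasn differed by 0.21 ± 0.22 (exact permutation p = 0.4, adjusted 0.4). Fads1, the delta-5 desaturase that makes arachidonic acid, read 10.95, 10.83, 10.63 and 11.23 under restriction and 10.35, 11.25 and 11.28 under ad libitum feeding. It was lowest in ad libitum replicate 1, below every restricted array, and highest in the other ad libitum arrays. The difference was -0.05 ± 0.24 (limma, adjusted p = 0.967, interval -0.60 to 0.50), and it ranged from -0.36 to 0.85 over the alternatives. Its partner Fads2, the delta-6 desaturase, was at 11.94 ± 0.24 against 11.82 ± 0.45, with 11.31 in ad libitum replicate 1 and at least 11.72 elsewhere.

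The order of the arrays for Fads1 was also that of Fads2, of the carbohydrate-response factor Mlxipl and of the mean of the proliferation markers, though not of each marker, since Pcna was highest in restricted replicate 1. It was replicate 4, 1, 2 and 3 under restriction and 3, 2 and 1 under ad libitum feeding, and 6.79% of the genes tested had it. The cell cycle gene Mki67 read 11.14, 10.73, 10.50 and 11.60 under restriction and 10.10, 11.27 and 11.55 under ad libitum feeding. The mean of 9 measured proliferation markers was 10.02 to 10.92 and 9.53 to 10.80, with ad libitum replicate 1 lowest. It moved with Fads1 across arrays, and its part in the Fads1 values was not tested.

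**Figure D4:**
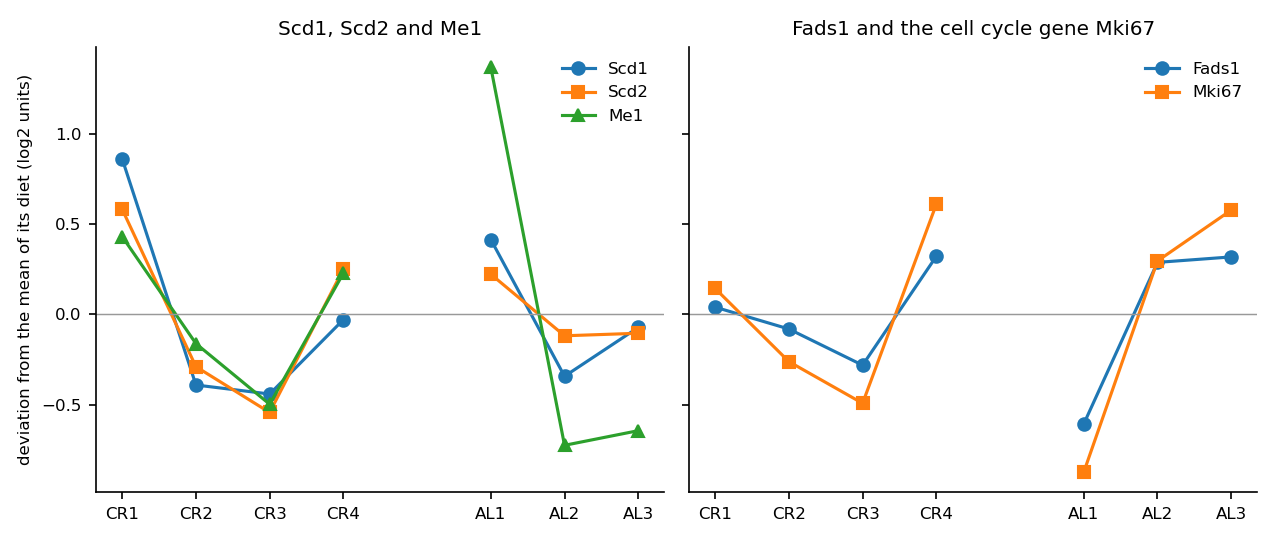
Deviation of each array from the mean of its own diet in log2 units (y axis), for Scd1, Scd2 and Me1 (left) and for Fads1 and Mki67 (right), with CR for calorie restricted and AL for ad libitum. In each panel the genes rank the arrays of a diet in the same order. Me1 lies furthest from its mean, in ad libitum replicate 1.

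Srebf1 was the steadiest of the 10, with all 7 arrays between 9.49 and 9.74. The means were 9.63 ± 0.08 and 9.59 ± 0.09, the difference 0.04 ± 0.09 (limma, adjusted p = 0.931). The 95% interval left out a rise above 1.18-fold and a loss above 1.11-fold. Whether the probe set tells the SREBP1a and SREBP1c transcripts apart was not tested. Srebf2, the paralog that drives cholesterol synthesis, was at 10.79 ± 0.08 against 10.85 ± 0.17. The ratio of Srebf1 to Srebf2 differed by 0.11 ± 0.06 (exact permutation p = 0.143, adjusted 0.286).

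Of 18 tested regulators of lipogenesis 0 were called by limma, 4 had an unadjusted p below 0.05, all with a positive difference, and the median difference was 0.12. Over all genes tested, 0.664% were called and 9.3% had an unadjusted p below 0.05, in either direction. Pparg, the fat-storage nuclear receptor, was at 9.93 ± 0.22 against 9.30 ± 0.16 (adjusted p = 0.127), and Rxra, its partner, at 9.91 ± 0.07 against 9.63 ± 0.07. Nr1h3, the liver X receptor that raises Srebf1 and Scd1 in liver, was at 8.86 ± 0.18 against 8.40 ± 0.25 (adjusted p = 0.344), with 1 restricted array just below the highest ad libitum array. Insig1, which holds SREBP proteins in the endoplasmic reticulum and is itself a target of theirs, was at 11.29 ± 0.29 against 11.57 ± 0.16 (adjusted p = 0.682). Mlxipl was at 10.61 ± 0.47 against 10.55 ± 0.61. The lipogenic gene Thrsp lay below the filter level on every array.

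Of the other genes of the pathway, 92 were measured and 83 passed the filter. Limma called 1 higher and 0 lower, where 0.656% and 0.00746% of all genes tested were called, and the called gene was the enterocyte marker Fabp2. An unadjusted p below 0.05 was found for 20, all with a positive difference, beside 9.3% of all genes in either direction. A positive difference was found for 63 of the 83. The shares of all genes with these signs are not given here, so neither count is read as a rise of the pathway. The mean of the enterocyte markers was higher on the restricted arrays, and its part in these counts was not tested. The median difference of the 83 pathway genes was 0.10, beside 0.01 for all genes tested. Centring each array on its median shifted the midpoint of all genes to 0.10, and the list medians were then 0.19 for supply, 0.19 for elongation and 0.21 for regulators. Among 17 genes that supply acetyl-CoA and NADPH 0 were called and the median was 0.10. The mitochondrial malic enzyme Me2 was at 12.00 ± 0.13 against 11.58 ± 0.20 (adjusted p = 0.231). Idh1, a cytosolic NADPH source, had a difference of 0.34 ± 0.12 and citrate synthase Cs 0.17 ± 0.06. The citrate carrier Slc25a1, which feeds Acly, was at 11.90 ± 0.02 against 11.92 ± 0.09.

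Among 14 elongation and desaturation partners 0 were called, where 0.664% of all genes tested were called. The median difference was 0.10, beside 0.01 for all genes tested. The components that pass electrons to the desaturases were among those with the smallest p. Cyb5r3, the cytochrome b5 reductase, was at 12.48 ± 0.05 against 12.12 ± 0.11 (adjusted p = 0.103), and Cyb5a, cytochrome b5 itself, at 11.99 ± 0.10 against 11.76 ± 0.05 (adjusted p = 0.358). For both, all restricted arrays lay above all ad libitum arrays, as for 7.14% of the genes tested. Elovl1, which extends very long chains, differed by 0.29 ± 0.10, and Elovl5, which extends polyunsaturated chains, by 0.01 ± 0.08. In the separate mitochondrial pathway, 0 of 8 were called, with Cbr4 at 0.49 ± 0.11 and Oxsm, its condensing enzyme, at 0.31 ± 0.08.

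Of 14 genes for AMPK and the control of malonyl-CoA, 0 were called, where 0.664% of all genes tested were called. The median was 0.03. The AMPK subunit Prkaa1, a kinase that inhibits the acetyl-CoA carboxylases, was at 10.67 ± 0.16 against 10.65 ± 0.23. Mlycd, which breaks malonyl-CoA down, differed by 0.41 ± 0.16, Cpt1a, the carnitine transferase that malonyl-CoA inhibits, by 0.31 ± 0.09, and the pseudokinase Trib3 by 0.70 ± 0.19. Acyl-CoA handling held the called gene, the intestinal fatty acid binding protein Fabp2, which was 2.09-fold higher (13.19 ± 0.08 against 12.12 ± 0.33, adjusted p = 0.0213). It is itself an enterocyte marker, as is Fabp1 in the same list. Adding the mean of those markers, Fabp2 included, to the fit left a difference of 0.20 (limma, adjusted p = 0.916). That mean itself separated the diets, and the fit with it called 0 of the 13409 genes tested. The fit therefore cannot separate diet from enterocyte content, and the enterocyte part in the Fabp2 difference was not tested. The Fabp2 call ended without restricted replicate 1, 2 or 3 (adjusted p = 0.104, 0.0946 and 0.0887 in limma, in a range of 0.000774 to 0.916 over the alternatives). Acsl5, an acyl-CoA synthetase, had a difference of 0.50 ± 0.09 (adjusted p = 0.0556) and the thioesterase Acot1 one of 0.97 ± 0.23.

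**Figure D5:**
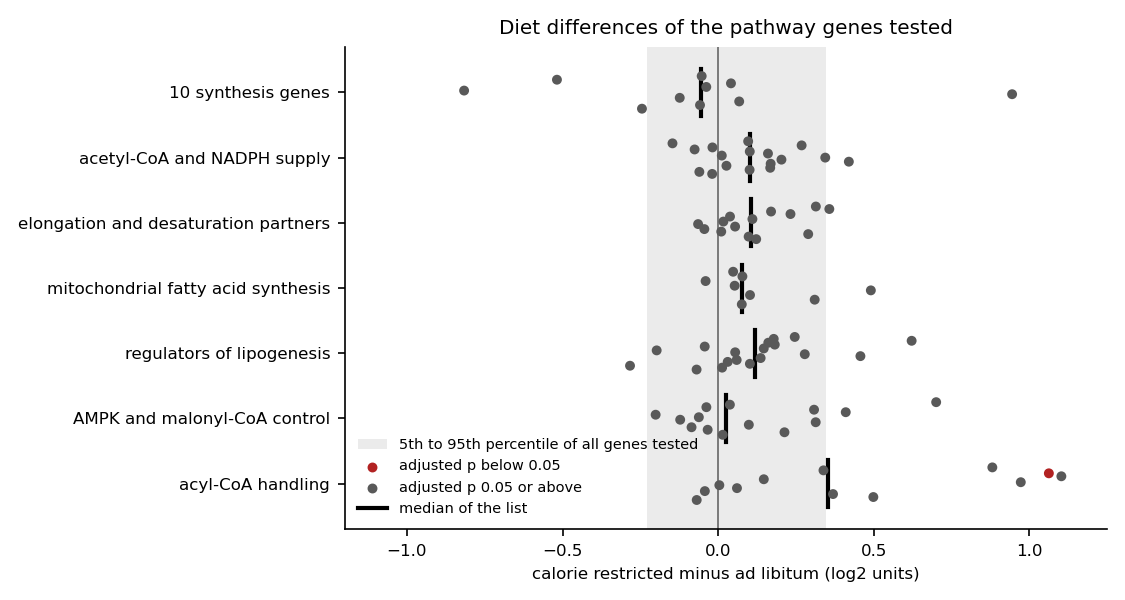
Diet differences in log2 units (x axis) of the 10 genes and of the tested genes of 6 pathway lists. Each point is a gene, black bars are list medians, red marks an adjusted p below 0.05, and grey is the 5th to 95th percentile of all genes tested. Fabp2 is the red point, and the list medians lie between -0.06 and 0.35.

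The genes nearest in profile to the most variable members were found by the root mean square difference over the 7 arrays, after each gene was centred on its own mean. That measure takes in the diet difference and any single high array. The directions that near genes share with Scd1 or Me1 therefore follow from how they were picked and are not separate results. Scd1 (SD 0.70) was closest to Slc5a4a at 0.285, the flavin monooxygenase Fmo5 at 0.297 and the sulfotransferase Sult2b1 at 0.298 log2 units. All these were higher under restriction without being called, with differences of 1.02, 0.85 and 0.85. Scd2 stood at rank 13205 of the genes by this measure, and its difference had the opposite sign. Me1 (SD 0.79) was closest to Prss35, Fam221a and Fcrlb, at 0.309, 0.376 and 0.404, each highest in ad libitum replicate 1. Among the 10 genes Scd2 came nearest to Me1, at rank 56.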

How the data were processed

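Each deposited value is the log2 expression of 1 transcript cluster, which the authors produced in Affymetrix Expression Console according to the submitters' processing notes. How background and arrays were corrected there is not given in the sources used here, and the log2 scale was inferred from values between 2.97 and 14.67. No rescaling was done. Of 35556 clusters, the platform annotation gave 1 symbol for 21789, several for 1621 and none for 12146. Gene identifiers were looked up in a RefSeq table (GRCm38.p6), and 0 symbols changed. No gene was named from a cluster with several symbols, and 8 of 100 pathway genes had no cluster under their symbol alone and were not analysed here.

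Each gene was read from its brightest cluster. The test kept genes whose mean reached 6.79, the 40th percentile over the clusters. The comparison of diets used lmFit and eBayes with intensity trend from limma 3.58.1 in R 4.3.3. On simulated arrays of 13409 genes it called 97 of 100 genes changed by 2 log2 units, 85 of 100 changed by 1, and 10 of 13209 unchanged genes. The simulated noise was independent between genes, while the real arrays deviated together across many genes, so these rates need not hold for the data. Ratios used an exact permutation test over all 35 splits, adjusted over 4 ratios.

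The 10 genes, the gene lists, the ratios and the rule for named genes were chosen with earlier results of these data known. Named pathway genes were the 3 with the smallest p in each list, any called gene, and 12 set by name. Alternatives were quantile normalization, median centring, no filter, a 60th percentile filter, the mean of all clusters, other variance models, an ordinary linear model, array weights, an enterocyte covariate, a block for the replicate number, and leaving out each array. The number of arrays limits the precision. Promoter sequences are from RefSeq.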

Additional observations from a re-analysis of the deposited data

Results flagged for a closer look

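Of 41 sets of 4 calorie-restricted values tested (the 10 genes, the 4 ratios and the named pathway genes), 3 had 1 array far from the other 3 of its diet, where chance alone picks out about 1 in 20. For Srebf1, replicate 1 at 9.74 lay apart from the others, its gap being 0.839 of the whole range, although that range was only 0.17 log2 units. For Rxra, replicate 3 at 9.80 was low (0.897 of the range). For Acsl5, replicate 1 at 11.84 was high (0.866 of the range). Groups of 3 were not tested this way, so the high Me1 value of ad libitum replicate 1 was not open to this check.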

How the results depend on the processing

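The count of 0 called among the 10 genes held in 17 of 18 alternatives, the exception being array weights. It could not differ in the ordinary linear model, the replicate block and the enterocyte covariate, which called 0 of all genes. There Scd1 (1.07) and Scd2 (-0.85) passed, so 1 of the 10 was called higher and 1 lower, Acacb turned to -0.042 and Acly to 0.010, and limma called 963 genes higher and 392 lower. That fit gave the lowest weights to ad libitum replicate 1 (0.292) and calorie restricted replicate 4 (0.371). It also called higher 3 of 17 genes of acetyl-CoA and NADPH supply and 3 of 14 elongation and desaturation partners. Of mitochondrial synthesis 2 of 8 were called higher, and of the regulators 4 of 18. AMPK and malonyl-CoA control had 2 of 14, and acyl-CoA handling 4 of 12. Over all 13409 genes tested, 963 were called higher and 10.1% in either direction, so these counts are not read as a rise of the lists. The medians were 0.19 for the regulators, 0.092 for AMPK and 0.66 for acyl-CoA handling. Over all genes, quantile normalization gave 53 higher and 0 lower, median centring 0 lower, the 60th percentile filter 0 lower and no filter 2 lower. The ordinary linear model, the replicate block and the enterocyte covariate each gave 0 higher and 0 lower in limma or its unmoderated form, and 0 in acyl-CoA handling, with 1318, 988 and 290 genes at an unadjusted p below 0.05. Median centring turned Acaca to 0.029, Elovl6 to 0.049 and Fads1 to 0.034, shifted the median over all genes (0.01) to 0.10, and gave list medians of 0.19 (supply), 0.19 (elongation), 0.16 (mitochondrial), 0.21 (regulators) and 0.11 (AMPK). The 60th percentile filter, which removed Scd1, gave 0.068 for AMPK. The enterocyte covariate turned Acaca to 0.29 and Fads1 to 0.85, with medians of 0.19 (mitochondrial), 0.023 (regulators), 0.14 (AMPK) and -0.21 (acyl-CoA handling).

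With the replicate block, in which restricted replicate 4 has no partner and drops out, Scd1 had a difference of 0.95 and Scd2 of -0.90, and medians were 0.025 (supply), 0.19 (regulators), 0.082 (AMPK) and 0.57 (acyl-CoA handling). The block changed no call among the 10 genes. Deviations of same-numbered arrays correlated, across genes, at -0.13, -0.27 and -0.55, and no array correlated best with the array of its own number. Whether same-numbered arrays were prepared together is not stated in the labels and was not tested. Without 1 array, the ranges were 12 (without restricted replicate 1 or 3) to 97 genes higher, 0 to 9 (without ad libitum replicate 1) lower, -0.88 to 0.17 for Me1, -0.36 to 0.11 for Fads1, -0.11 to 0.066 for Elovl6 and -0.0073 to 0.079 for Srebf1. List medians ranged from 0.025 to 0.18 (supply), 0.031 to 0.15 (elongation), 0.070 to 0.19 (regulators), 0.0092 to 0.082 (AMPK) and 0.13 to 0.60 (acyl-CoA handling), with 0 to 1 elongation genes (1 without ad libitum replicate 1) and 0 to 2 acyl-CoA genes (2 without ad libitum replicate 2) called. Where Me1 turned, ad libitum replicate 1 had been left out. The cause of the other changes was not tested. With 6 arrays the permutation test of the ratios cannot reach the threshold, its smallest p being 0.1 or 0.0667. The number of arrays, and for Scd1 a signal near the filter level, limit these results.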
